A study of Mus musculus with 31 samples.

Results

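The unfolded protein response and the heat shock response were read here as 44 genes, measured by 85 probes of the liver arrays, out of 23968 gene names and 36059 probes tested. The members were every listed gene whose name the array annotation gives for a probe of the deposited table. They form 7 lists by role, with 14 chaperones and folding enzymes of the endoplasmic reticulum (ER), 4 genes of ER-associated degradation, 4 sensors and transducers of ER stress, 8 genes of the PERK-ATF4 branch, 10 cytosolic heat shock genes, the 2 genes of the mitochondrial chaperonin and 2 cold-inducible RNA-binding genes. Of the members, 19 had 1 probe and 25 had several, up to 5. A gene given by a single value is represented by its brightest probe, the one with the highest average signal.

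All mice were male C57BL6/J on chow, fasted for 24 hours and then given food and 20% glucose water for 18 hours, and their age is not given in the labels. ChREBP is a glucose-responsive transcription factor encoded by Mlxipl. ChREBPtotal_KO mice are Mlxipl-null and lack both isoforms, ChREBPα and ChREBPβ (total ChREBP-KO, n = 7), and ChREBPtotal_WT mice are the WT animals of the same line. ChREBPbeta_KO mice carry a CRISPR/Cas9 deletion of the exon that is particular to ChREBPβ (n = 8), and ChREBPbeta_WT mice are their WT littermates (n = 8). Both deletions are present in every tissue, so a change in liver may start outside the liver. The labels list 31 one-color arrays, each as a sample of its own, and replicate 3 of the total ChREBP-KO mice was not analysed here. Arrays 7 and 8 of the total WT group differed with an SD of 0.144 over probes on the log2 scale, less than the 0.202 that the spot-to-spot noise within an array gives. They were averaged and counted as 1 sample, which left 7 total WT samples and 30 samples in all. The labels say no more than that the samples are separate, so p-values measure the spread between these samples.

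In the endoplasmic reticulum, chaperones such as BiP (Hspa5) fold secreted and membrane proteins, and misfolded proteins are moved back to the cytosol and degraded. When unfolded proteins build up, the sensors IRE1 (Ern1), ATF6 and PERK (Eif2ak3) act through spliced XBP1, cleaved ATF6 and ATF4, which induce chaperones, degradation genes and amino acid and stress genes. In the cytosol, heat shock factor HSF1 induces HSP70 and HSP90 proteins and their co-chaperones. In liver, which secretes much plasma protein, ER chaperone mRNAs are abundant and vary with feeding and time of day. Splicing of Xbp1, translation of Atf4 and cleavage of ATF6 are not read by these probes.

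Upstream stretches of 5 members are shown first, since the ERSE was found in 7 of the 12 ER chaperones and folding enzymes with a promoter and the expression data can be read beside it. RefSeq promoters (build GRCm38.p6) matched 36 of the 44 members by symbol, and Manf, Hyou1, Atf6, Ppp1r15b, Hspa8, Hsp90aa1, Hsp90ab1 and Rbm3 were not matched. The 250 bases before each gene's start were searched on both strands in 27025 genes. The ER stress response element (ERSE), spelled CCAAT and CCACG with any 9 bases between them, stood in 8 of the 36 members (Calr, Canx, Creld2, Dnajc3, Hsp90b1, Hspa5, Pdia6 and Syvn1) and in 0.13% of all genes searched. The related ERSE-II, spelled ATTGG and CCACG with any 1 base between them, stood in Herpud1 and in 0.037% of all genes. The windows are those of Hspa5 (chr2:34771840-34772089, plus strand), Syvn1 (chr19:6046326-6046575, plus strand), Herpud1 (chr8:94386179-94386428, plus strand), Hsp90b1 (chr10:86705445-86705694, minus strand) and Pdia6 (chr12:17266339-17266588, plus strand). Each is written 5′ to 3′ on the strand of the gene, and capitals mark the ERSE or, for Herpud1, the ERSE-II.
Hspa5: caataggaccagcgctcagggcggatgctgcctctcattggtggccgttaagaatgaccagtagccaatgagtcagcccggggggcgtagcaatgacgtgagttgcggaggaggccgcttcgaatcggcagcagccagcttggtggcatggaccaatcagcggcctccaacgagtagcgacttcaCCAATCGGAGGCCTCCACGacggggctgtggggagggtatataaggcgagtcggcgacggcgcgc
Syvn1: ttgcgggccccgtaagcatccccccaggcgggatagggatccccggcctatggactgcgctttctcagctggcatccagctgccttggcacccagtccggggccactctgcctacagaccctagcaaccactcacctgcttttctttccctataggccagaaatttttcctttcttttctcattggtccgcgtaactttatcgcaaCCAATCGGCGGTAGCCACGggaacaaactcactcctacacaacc
Herpud1: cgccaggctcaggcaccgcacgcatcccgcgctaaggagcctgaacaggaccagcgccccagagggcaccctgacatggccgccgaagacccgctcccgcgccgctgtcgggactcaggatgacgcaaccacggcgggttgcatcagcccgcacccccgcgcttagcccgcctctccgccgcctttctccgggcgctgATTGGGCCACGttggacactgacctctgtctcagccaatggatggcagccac
Hsp90b1: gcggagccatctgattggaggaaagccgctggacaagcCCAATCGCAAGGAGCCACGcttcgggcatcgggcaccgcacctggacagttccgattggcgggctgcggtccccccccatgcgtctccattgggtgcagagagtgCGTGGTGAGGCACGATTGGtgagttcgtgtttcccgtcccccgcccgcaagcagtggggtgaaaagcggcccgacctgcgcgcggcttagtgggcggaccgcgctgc
Pdia6: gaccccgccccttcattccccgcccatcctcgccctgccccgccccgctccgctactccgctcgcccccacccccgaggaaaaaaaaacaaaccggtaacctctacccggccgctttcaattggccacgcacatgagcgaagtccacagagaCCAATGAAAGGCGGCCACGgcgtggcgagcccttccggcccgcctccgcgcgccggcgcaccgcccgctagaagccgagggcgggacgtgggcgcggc
Hsp90b1, which encodes the ER form of HSP90 (GRP94), held the ERSE on both strands. The heat shock element, spelled GAA, TTC and GAA with any 2 bases between neighbors, stood in Hspd1 and Hspe1 and in 0.514% of all genes, and in none of the 7 cytosolic heat shock members with a promoter. The cAMP response element TGACGTCA stood in Ppp1r15a (1.77% of all genes), and the E-box CACGTG in Calr, Dnajb9, Hspd1 and Hsph1 (6.86%). No member held the UPR element TGACGTGG (0.603% of all genes), the ATF4 element TGATGNAAT (0.91%) or the D-box TTATGTAA bound by DBP and its relatives (0.977%). The CRE and the UPR element share the letters TGACGT, and both ERSE forms share CCACG. These are matches of letters in 1 window per start and say nothing of binding.

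In total ChREBP-KO livers 18 of the 44 members were higher than in WT mice by at least 1 probe (limma, adjusted p under 0.05 over all probes), against 16.3% of all genes tested. The members were chosen with earlier results of these data known, so their shares here are no independent test of the pathways. The stress transcription factors Ddit3 and Atf3, the degradation genes Herpud1 and Syvn1, the co-chaperone Dnajb9 and the sensors Eif2ak3 and Atf6 were among them. Lower by at least 1 probe were 2 members, Ern1 and a minor probe of Dnaja1, against 16.2% of all genes. By the brightest probe alone, 14 members were higher (13.5% of genes) and 1 was lower (14.1%). The median log2 difference of the members was 0.26, beside 0.01 over all genes. In bulk liver, a change in the number of cells of a type and a change in RNA per cell cannot be told apart. In 4 members, Dnajb9, Herpud1, Atf6 and Eif2ak3, every total ChREBP-KO mouse lay above every WT sample, and in 0 of the 44 every knockout lay below (3.46% and 4.6% of all genes by the brightest probe).

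**Figure D1:**
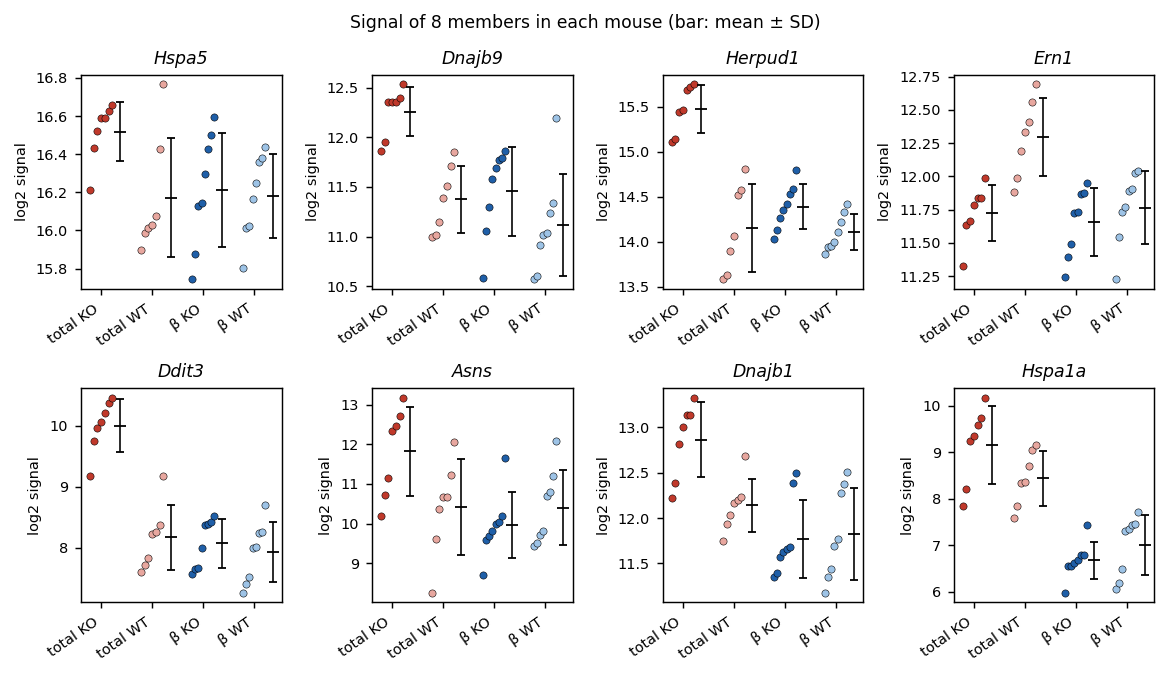
Log2 signal of 8 members in every sample of the 4 groups, 1 panel per gene, with the brightest probe on the vertical axis, 1 point per sample and a bar at the group mean with its SD; points of a group are ordered by value. Herpud1 and Dnajb9 of total ChREBP-KO mice lie above all their WT samples, and Ern1 is lower in the knockouts than in the WT samples with 1 knockout reaching into the WT range.

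The targeted gene followed the labels by the brightest of its 3 probes. The brightest Mlxipl probe ranged from 13.89 to 14.30 (median 14.11) in total ChREBP-KO and from 15.14 to 15.48 (median 15.28) in WT samples on the log2 scale. The dimmest Mlxipl probe gave -0.61 (adjusted p = 0.0039 by limma) with overlapping groups, and the remaining probe gave -0.04 (adjusted p = 0.67). Where these probes lie relative to the deleted part was not determined. All 13 hepatocyte markers listed were measured, and 4 of them were called higher and 2 lower in total ChREBP-KO mice. Within groups, arrays correlated at 0.989 to 0.999, between 34131 and 38612 spots passed on each array, and no member spot was saturated. Arrays lay on 15 slides, 13 of them with over 1 group, and were scanned on 2 days. Some libraries stood apart. Over the 13 of 30 exocrine pancreas markers measured, the mean log2 deviation from each gene's mean was 2.26 in total WT replicate 2 and 1.25 in the averaged pair, against -0.45 to 0.39 in the other 28 samples. Over 8 stellate cell and fibroblast markers it was 1.24 and 0.88 in total ChREBP-KO replicates 1 and 4, against -0.54 to 0.33 in the rest. Of 10 immediate early genes, which respond to handling and stress, 3 were higher and 1 lower in total ChREBP-KO mice.

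Chaperones and folding enzymes of the ER had the lowest median among the lists with called members. Of the 14, 2 were higher by the brightest probe, Hspa5 and Dnajb9, and 2 more, Dnajb11 and Hyou1, by a minor probe, with none lower and a list median of 0.12. Hspa5 signal was 16.21 to 16.66 (median 16.59) in total ChREBP-KO and 15.90 to 16.77 (median 16.03) in WT samples. The groups overlapped through WT replicate 2, which held the highest value. The difference was 0.35 ± 0.13 (SE, log2, 1.27-fold, adjusted p = 0.046 by limma), and both other Hspa5 probes were called at 0.44 and 0.45. The call of the brightest Hspa5 probe was lost in 16 of 32 settings that left out 1 sample and in 9 of 19 other alternatives. Dnajb9, an ER co-chaperone of the DnaJ family (ERdj4), had 11.86 to 12.53 (median 12.36) in knockouts against 11 to 11.85 (median 11.39) in WT samples, with no overlap, a difference of 0.89 ± 0.21 (1.85-fold, adjusted p = 0.0016).

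The remaining folding genes did not pass the test by their brightest probe. Hsp90b1 differed by 0.15 ± 0.11, the lectin chaperones Calr and Canx by -0.04 ± 0.08 and 0.05 ± 0.08, and the disulfide isomerases Pdia3, Pdia4 and Pdia6 by 0.02, 0.20 and -0.13. Sdf2l1 and Creld2, small ER proteins of the stress response, had larger differences of 0.45 ± 0.18 and 0.53 ± 0.24 with adjusted p of 0.06 and 0.10, and Manf, a secreted ER stress protein, had 0.27 ± 0.16. Of the 8 members whose upstream window holds an ERSE, Hspa5 and Syvn1 were called and the other 6 were not. Total WT replicate 2 had the highest mean deviation of this list of all samples, 0.48, against -0.34 to 0.16 in the other total WT samples and -0.17 to 0.30 in the knockouts. Without that replicate, 25 members in all were called in place of 19, and the share of all genes called then was not counted. The list median was -0.02 with slide as a fixed block.

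For 2 members of this list the probes did not tell the same thing. Dnajb11, an ER co-chaperone of BiP, was read by 3 probes, and the brightest gave 13.56 to 13.95 in knockouts and 13.61 to 14.35 in WT samples (difference 0.02 ± 0.11). Its dimmest probe, at chr16:22879612-22879671 (mm9), gave 9.0 to 9.85 (median 9.33) in knockouts and 7.39 to 7.76 (median 7.48) in WT samples, without overlap, a difference of 1.89 ± 0.45 (adjusted p = 0.0021). The brightest Dnajb11 probe lies at chr16:22872067-22872126 on the same strand, so the dim one lies further 3′. In Hyou1, a large HSP70-related chaperone of the ER, the brightest probe differed by 0.05 ± 0.13. Its dimmest probe, at chr9:44193855-44193914, gave 6.89 to 8.65 (median 7.89) in knockouts and 5.65 to 7.31 (median 6.61) in WT samples, 1.29 ± 0.32 apart (adjusted p = 0.0026). Which transcript each of these dim probes reads was not determined, so neither gene is counted as changed by its brightest probe.

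Genes of ER-associated degradation were higher in total ChREBP-KO livers. All 4 were called by at least 1 probe, 3 by the brightest, with a median difference of 0.64. Herpud1, a membrane protein of the degradation complex, ranged from 15.11 to 15.75 (median 15.47) in knockouts and from 13.58 to 14.81 (median 14.07) in WT samples. Every knockout was above every WT sample, and the difference was 1.32 ± 0.16 (2.50-fold, adjusted p = 2.6e-07), with 1.5 by its other probe. Syvn1, the ubiquitin ligase HRD1 of the same complex, had 15.09 to 15.85 (median 15.58) against 14.27 to 15.38 (median 14.50). In Syvn1, 5 of 7 knockouts were above all WT samples, and the difference was 0.86 ± 0.19 (1.81-fold, adjusted p = 0.0011). Edem1, which directs misfolded glycoproteins to degradation, had 12.24 to 12.66 against 11.82 to 12.78, the highest WT value being that of replicate 2 (0.43 ± 0.12, adjusted p = 0.0071). Sel1l, the partner of Syvn1, differed by 0.28 ± 0.12 with adjusted p = 0.086, and its dimmer probe was called at 0.27 (adjusted p = 0.013).

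Among the sensors the directions were mixed. Atf6 ranged from 10.76 to 11.03 (median 10.90) in knockouts and from 10.19 to 10.70 (median 10.42) in WT samples, a difference of 0.47 ± 0.08 (1.39-fold, adjusted p = 3.2e-05). Eif2ak3, the kinase PERK, ranged from 10.03 to 10.69 (median 10.29) against 9.01 to 9.83 (median 9.54), 0.88 ± 0.16 higher (1.85-fold, adjusted p = 7.8e-05). Neither overlapped, although their dimmer probes gave 0.32 and 0.28 with adjusted p of 0.06 and 0.071. Ern1, which encodes IRE1 and cuts Xbp1 mRNA, ran the other way. It had 11.32 to 11.99 (median 11.79) in knockouts and 11.88 to 12.69 (median 12.33) in WT samples, and 6 of 7 knockouts were below every WT sample. Ern1 fell by 0.57 (SE 0.13, 0.674-fold, adjusted p = 0.0017), and all 5 probes were called lower, the dimmest 3 between -1.02 and -0.79. Xbp1, whose total mRNA these probes read, gave 14.60 to 15.16 in knockouts and 14.68 to 15.13 in WT samples, a difference of -0.10 ± 0.10 that did not pass.

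The PERK-ATF4 branch held the 3 largest brightest-probe differences of the members, those of Ddit3, Atf3 and Asns. All 8 brightest-probe differences were above 0, with a median of 0.47, and 3 members were called higher. Ddit3, the stress transcription factor CHOP, had 9.18 to 10.47 (median 10.06) in knockouts and 7.6 to 9.18 (median 8.23) in WT samples. The groups met at 9.18, where 6 of 7 knockouts were above all WT samples, and the difference was 1.84 ± 0.24 (3.57-fold, adjusted p = 7.3e-07), with 1.39 by the other probe. Atf3, a stress-induced transcription factor, had 8.83 to 9.99 (median 9.17) against 6.87 to 9.33 (median 7.44), where the WT value of 9.33 was again replicate 2. The Atf3 difference was 1.76 ± 0.36 (3.38-fold, adjusted p = 0.00039). Asns, asparagine synthetase, spread widely, with 10.20 to 13.18 (median 12.34) against 8.26 to 12.05 (median 10.67). Its 1.41 ± 0.52 (2.66-fold) passed narrowly (adjusted p = 0.04), and 7 of 32 settings that left out a sample lost it.

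Atf4 itself differed by 0.13 ± 0.13 (14.95 to 15.56 in knockouts, 14.91 to 15.47 in WT samples). Ppp1r15a (GADD34), which reverses PERK's block of translation, gave 0.26 ± 0.10 with adjusted p = 0.06, and its constitutive relative Ppp1r15b gave 0.17 ± 0.08. Chac1, which breaks down glutathione, spread almost as widely as Asns and differed by 0.68 ± 0.37 (adjusted p = 0.19), and Sesn2 by 0.01 ± 0.09.

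Of the 10 cytosolic heat shock genes 5 were higher by at least 1 probe. By the brightest probe 4 were higher, all of them co-chaperones of HSP70, and none was lower, and the fifth gene was Hspa8, an HSP70 itself, by minor probes, with a list median of 0.51 by the brightest probe. Dnajb1 (HSP40), which loads clients on HSP70, had 12.22 to 13.33 (median 13.00) in knockouts and 11.74 to 12.68 (median 12.16) in WT samples, with 5 of 7 knockouts above all WT samples. It differed by 0.72 ± 0.21 (1.65-fold, adjusted p = 0.011). Hsph1 (HSP110), an exchange factor, was 0.65 ± 0.19 higher (adjusted p = 0.01), and Bag3, another exchange factor, 0.47 ± 0.16 higher (adjusted p = 0.028). Dnaja1 was 14.85 to 15.39 against 14.40 to 14.88 and differed by 0.56 ± 0.09 (adjusted p = 3.9e-05). Its dimmest probe ran opposite, at -0.20 (adjusted p = 0.041), and lies furthest 3′ of the 3 probes. With the mean of its 3 probes Dnaja1 was not called.

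Hspa8, the constitutive HSP70, differed by 0.40 ± 0.19 with adjusted p = 0.11 by its brightest probe, while 2 of its 3 other probes were called at 0.53 and 0.54. The inducible HSP70 genes Hspa1a and Hspa1b are near-identical copies, so probes for one may also bind the other's mRNA. Hspa1a had 7.84 to 10.18 (median 9.35) in knockouts and 7.59 to 9.16 (median 8.37) in WT samples, and 5 of 7 knockouts were above all WT samples. The differences of 0.73 ± 0.32 in Hspa1a and 0.70 ± 0.31 in Hspa1b did not pass (adjusted p = 0.091 and 0.10). The HSP90 genes Hsp90aa1 and Hsp90ab1 gave -0.10 ± 0.16 and -0.05 ± 0.08, and the small heat shock gene Hspb1 0.05 ± 0.14. The mitochondrial chaperonin genes Hspd1 and Hspe1, which carry the heat shock element and share 1 bidirectional promoter, gave -0.02 ± 0.06 and 0.07 ± 0.08. Cirbp and Rbm3, RNA-binding proteins induced by mild cold, gave -0.13 ± 0.15 and 0.18 ± 0.18.

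**Figure D2:**
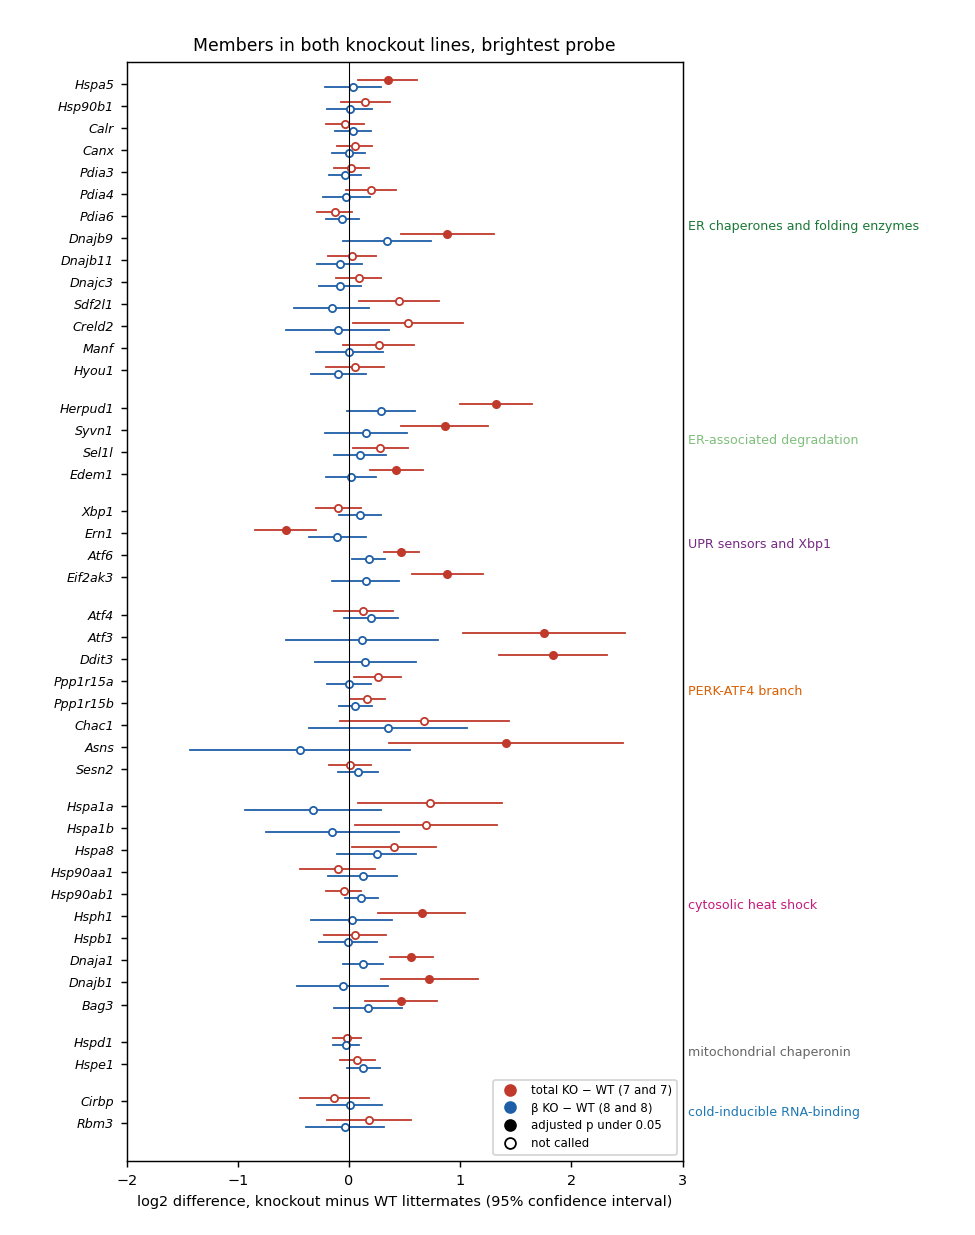
Log2 difference of each member, knockout minus WT, for the total line (red) and the ChREBPβ line (blue), by the brightest probe with 95% confidence intervals; filled points have adjusted p under 0.05. Filled points lie to the right in 14 members of the total line, to the left only in Ern1, and in no member of the ChREBPβ line.

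Scan day and slide were each checked as batches, and the shares of all genes called in those fits were not counted. All 15 members called by the brightest probe kept their direction on both scan days (4 knockouts and 4 WT samples on day 1, 3 and 3 on day 2), and with scan day in the fit 20 members were called. Sizes differed by day in some, with Asns at 0.65 on day 1 and 2.43 on day 2, and Atf3 at 1.32 and 2.33. In others they were alike, as in Herpud1 (1.37 and 1.25) and Dnajb1 (0.72 and 0.72). On the 4 slides that held both total ChREBP-KO and WT arrays, 1 of each, 12 of the 15 had the same direction on every slide. Edem1, Ern1 and Hspa5 had it on 3 of 4. The slide where these differed (-0.24, 0.11 and -0.11) was that of total WT replicate 2, the sample highest in pancreatic markers. With slide as a fixed block, which leaves few degrees of freedom, 11 members were called in place of 19. By the brightest probe Herpud1 (1.23), Ddit3 (1.5), Eif2ak3 (0.77), Dnaja1 (0.47) and Atf6 (0.38) stayed called, while Hspa5, Dnajb9, Syvn1, Edem1, Ern1, Atf3, Asns, Hsph1, Dnajb1 and Bag3 did not.

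The knockouts were not alike in these lists. In cytosolic heat shock genes the mean deviation was 0.03 and 0.05 in total ChREBP-KO replicates 1 and 4, which were those high in stellate markers, and 0.56 to 0.93 in the other 5 knockouts, beside -0.15 to 0.39 in WT samples. In ER-associated degradation replicates 1 and 4 had 0.17 and 0.29, and the other knockouts 0.51 to 0.66. In the PERK-ATF4 branch replicate 4 (0.09) and replicate 8 (0.30) were lowest, and replicate 1 had 0.79. The array of replicate 4 also had the highest local background of all arrays (33) and the fewest passing spots (34131). Without replicates 1 and 4, 22 members were called, and without the WT samples high in pancreatic markers 21 were. The shares of all genes called in these refits were not counted. The part of either marker set, or of the local background, in these values was not tested.

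**Figure D3:**
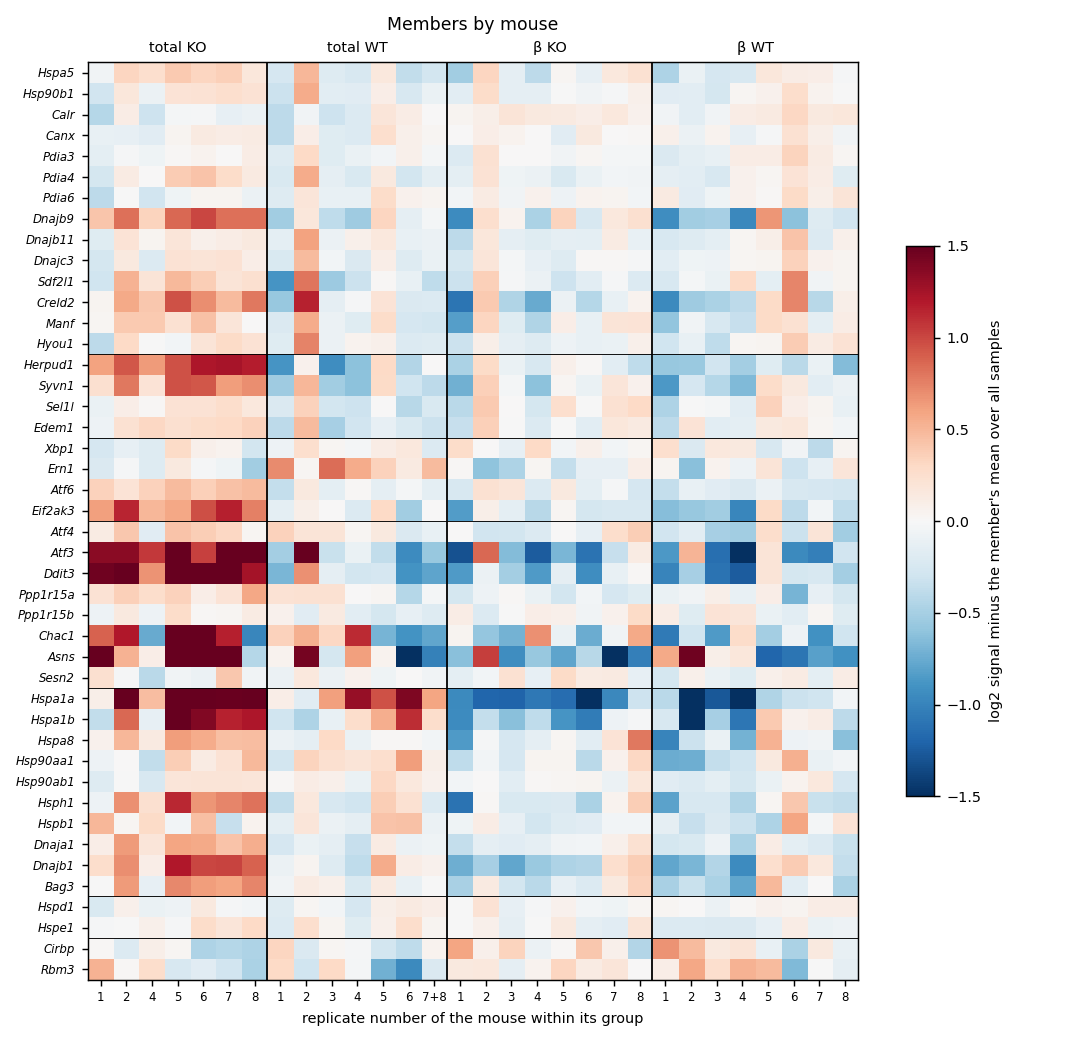
Log2 signal of every member minus its mean over all samples, with members in rows by list and mice in columns by group; the column 7+8 is the averaged pair of total WT arrays. Red is above and blue below the mean, capped at 1.5. Total ChREBP-KO columns 1 and 4 are paler than the other knockouts in Dnajb1, Hsph1 and Bag3, and total WT column 2 is red in most ER chaperones.

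In livers that lacked ChREBPβ alone, no member was called in either direction. Over all genes, 0% were higher and 0.00417% lower, the single gene being Mlxipl itself (-0.45, adjusted p = 0.02). At an unadjusted p under 0.05, 1 of the 44 members passed (Atf6, higher by 0.18 ± 0.07, against 3.42% of genes) and none was lower (3.43%). Exact Mann-Whitney tests gave 0 members after adjustment and 1 before. The smallest p of those tests was 0.00016, which can pass adjustment only where many probes share it. Those tests therefore had little room to call a member. The list medians were -0.03 for ER chaperones, 0.13 for ER-associated degradation, 0.12 for the sensors, 0.10 for the PERK-ATF4 branch and 0.07 for cytosolic heat shock. The 95% intervals show how far a change could have gone unseen. Hspa5 differed by 0.03 (-0.22 to 0.28), Herpud1 by 0.29 (-0.02 to 0.59), Ddit3 by 0.15 (-0.30 to 0.60) and Dnajb1 by -0.06 (-0.46 to 0.35). Asns, the most variable, differed by -0.44 (-1.43 to 0.55).

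The test of the difference between the knockout effects called 8 members, 7 higher (8.42% of all genes) and 1 lower (9.27%) in the total line. By the brightest probe 5 were higher (6.76%) and none lower (7.94%). These were Ddit3 (1.69 ± 0.32, adjusted p = 0.00051), Atf3 (1.64 ± 0.49, 0.022), Herpud1 (1.03 ± 0.22, 0.0014), Eif2ak3 (0.73 ± 0.21, 0.019) and Dnaja1 (0.43 ± 0.13, 0.021). The dim probes of Dnajb11 and Hyou1 (2.11 and 1.60) and 3 dim probes of Ern1 (-0.95 to -0.77) made up the rest. Of the 5 called by the brightest probe, Dnaja1 alone lost its call with the mean of all probes of a gene. For the other called members, such as Dnajb9 (0.54 ± 0.28), Syvn1 (0.71 ± 0.26), Dnajb1 (0.78 ± 0.29) and Hspa5 (0.31 ± 0.18), the effects of both deletions were not shown to differ. The count was 13 without total WT replicate 2 and 13 without total ChREBP-KO replicates 1 and 4, and 5 with slide as a fixed block. The shares of all genes called in these refits were not counted.

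Between the WT mice of both lines, 9.09% of the members were called higher and 2.27% lower, near and below the shares of all genes. Against ChREBPβ WT mice, total WT samples had 4 members higher (8.61% of all genes) and 1 lower (10.3%), or 2 and none by the brightest probe (6.73% and 8.47%). Hspa1a was highest in difference, with 7.59 to 9.16 (median 8.37) in total WT samples and 6.06 to 7.72 (median 7.33) in ChREBPβ WT mice, 1.44 ± 0.31 apart (adjusted p = 0.0019). The ranges overlapped only slightly. Ern1, at 11.23 to 12.04 (median 11.83) in ChREBPβ WT mice, was 0.53 ± 0.13 higher in total WT samples (adjusted p = 0.0058), so that the level of Ern1 in total ChREBP-KO mice lay within the range of ChREBPβ WT mice. Minor probes of Hsp90aa1 (0.48), Hspe1 (0.21) and Cirbp (-0.31) were the other calls. Immediate early genes had 6 of 10 higher in total WT samples and red blood cell genes 5 of 7, and their part was not tested. With slide as a fixed block no member was called in this comparison, where Hspa1a gave 1.39 and Ern1 0.47.

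Dbp is a transcription factor driven by the circadian clock, and its mRNA swings over many fold within a day, so its level varies with clock phase. The clock phase of each liver was not itself measured. In log2 signal, Dbp was 12.23 to 14.04 in total ChREBP-KO and 9.05 to 10.95 in total WT samples, with no overlap (3.27 ± 1.04, adjusted p = 0.018). In the ChREBPβ line it spanned 8.53 to 14.51 in knockouts and 8.22 to 15.26 in WT mice. The 16 mice of that line fell on both sides of a gap of 1.78, with 10 mice above it (6 knockouts and 4 WT) and 6 below it (2 and 4), and no pooled correlation was therefore computed there. The slopes given next were fitted across that gap, so they partly compare mice above it with mice below it. In the total line genotype and Dbp level cannot be told apart.

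More members had called slopes on Dbp below 0 than above 0 in the fit over all groups. In a fit of Dbp centred within groups, 15 members had a slope below 0 (5.52% of all genes) and 3 above 0 (4.33%), and of the within-group variation in Dbp 95% came from the ChREBPβ line. Cytosolic heat shock genes made up 6 of the 15 and ER chaperones 5. Dnajb1 had the slope with the smallest adjusted p among brightest probes, -0.15 ± 0.03 log2 units per log2 unit of Dbp (adjusted p = 0.00031). Ddit3 (-0.13 ± 0.03), Creld2 (-0.13 ± 0.04), Hspa8 (-0.11 ± 0.03), Dnajb9 (-0.11 ± 0.03), Bag3 (-0.10 ± 0.02), Syvn1 (-0.10 ± 0.03), Hsph1 (-0.10 ± 0.03), Hsp90aa1 (-0.10 ± 0.02), Manf (-0.09 ± 0.02), Eif2ak3 (-0.08 ± 0.02) and Hspa5 (-0.07 ± 0.02) were the others among the 12 called below 0 by the brightest probe (4.37% of genes). Hsp90aa1 was not called between genotypes and was among those called here. Slopes above 0 were those of Cirbp (0.09 ± 0.02, adjusted p = 0.017), alone among brightest probes (3.53% of genes), of 2 minor probes of Xbp1 (0.05 and 0.06) and of the dim Dnajb11 probe. That probe had a slope of 0.41 ± 0.03 (adjusted p = 4.1e-12), opposite to the brightest Dnajb11 probe (-0.04 ± 0.02), and spanned 6.17 to 9.66 in the ChREBPβ line.

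Herpud1 and Atf6, among the clearest differences of the total line, had slopes of -0.01 ± 0.03 and 0.00 ± 0.01, and Asns 0.20 ± 0.09, none of which passed. Fitted by line, the ChREBPβ line alone gave 3 members higher and 14 lower (4.41% and 5.39% of all genes), the total line 0 and 0, and the test of the difference of slopes called 0 members. Over all genes, that test called 0 and the total line 1 in each direction. Within the 7 total ChREBP-KO and the 7 WT samples, 88 correlations of members with Dbp were tested by exact permutation. Pearson's r was below 0 in 34 of 44 members among the knockouts and in 13 of 44 among the WT samples, where 31 were above 0. The shares of these signs over all genes were not counted. Without the 2 WT samples farthest in Dbp, some values above 0 turned below 0, as in Creld2 (0.47 to -0.94). Others stayed above 0, as in Pdia3 (0.71 to 0.43). By Pearson's r none passed before or after adjustment, with the smallest adjusted p at 0.799. By Spearman's rho, Pdia3 (0.89, permutation p = 0.012) and Sesn2 (0.86, p = 0.024) passed before adjustment among the WT samples. Bag3 (-0.86, permutation p = 0.024) did so among the knockouts. After adjustment none passed by rho, with the smallest adjusted p at 0.698. The slopes rested on few mice. Without ChREBPβ KO replicate 8 and ChREBPβ WT replicate 5, the pair farthest in Dbp from their groups, 3 members were called in place of 18, and without ChREBPβ WT replicate 5 alone 8 were. With the clock gene Per2 in place of Dbp none was called, with Nr1d1 15 were, and with slide as a fixed block 3 were. With replicate number as a block, although the numbers were not taken as pairs, 5 were.

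**Figure D4:**
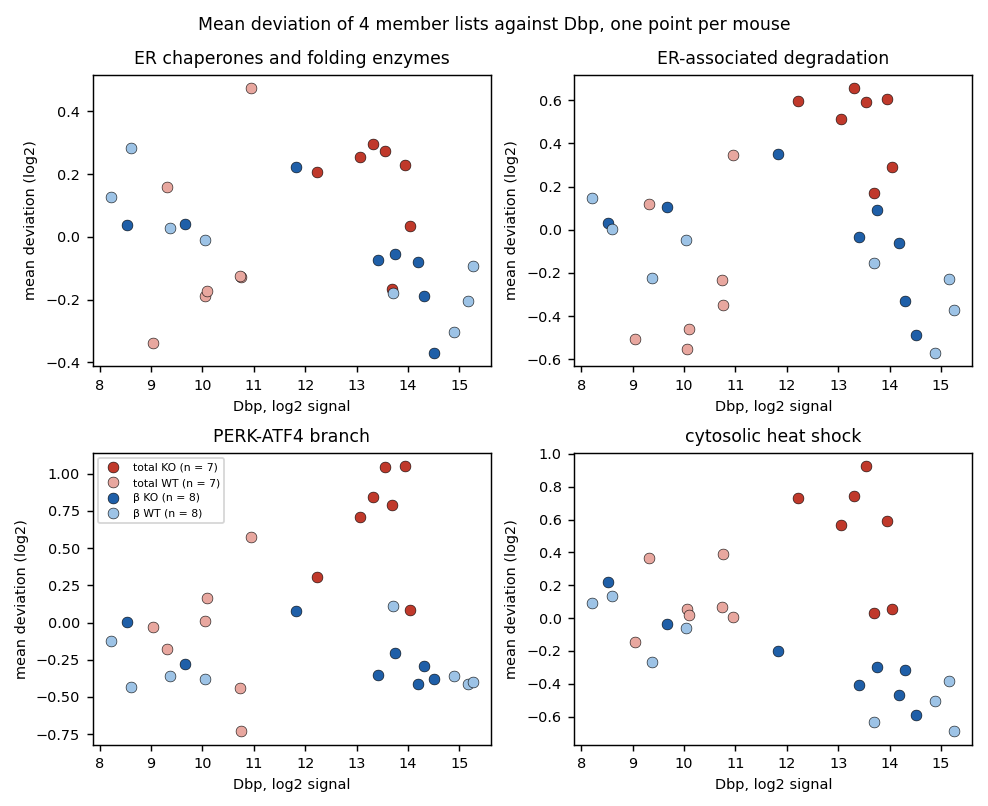
Mean log2 deviation of 4 member lists from each gene's mean (vertical) against Dbp log2 signal (horizontal), 1 point per sample, colored by group. In the cytosolic heat shock panel the ChREBPβ line runs from 0.22 at low Dbp to -0.69 at high Dbp, and total ChREBP-KO samples lie at 0.03 to 0.93 with Dbp above 12.

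Of the 14 members higher in total ChREBP-KO mice by the brightest probe, 8 were among the 12 with a called slope below 0 in the fit over all groups. The share of all genes with both calls was not counted. With Dbp as measured entered as a covariate, 25 members were called in the total line in place of 19, and 20 in place of 8 in the difference between knockout effects. Dnajb1 then differed by 1.22 in place of 0.72, Ddit3 by 2.26 in place of 1.84, Dnajb9 by 1.24 in place of 0.89 and Hspa5 by 0.58 in place of 0.35. Asns went to 0.75 and was no longer called. This adjustment takes the slope of the ChREBPβ line over to the total line, where no slope was called. How many of all genes were called after it was not counted, so the gain in calls is not shown to be particular to the members.

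**Figure D5:**
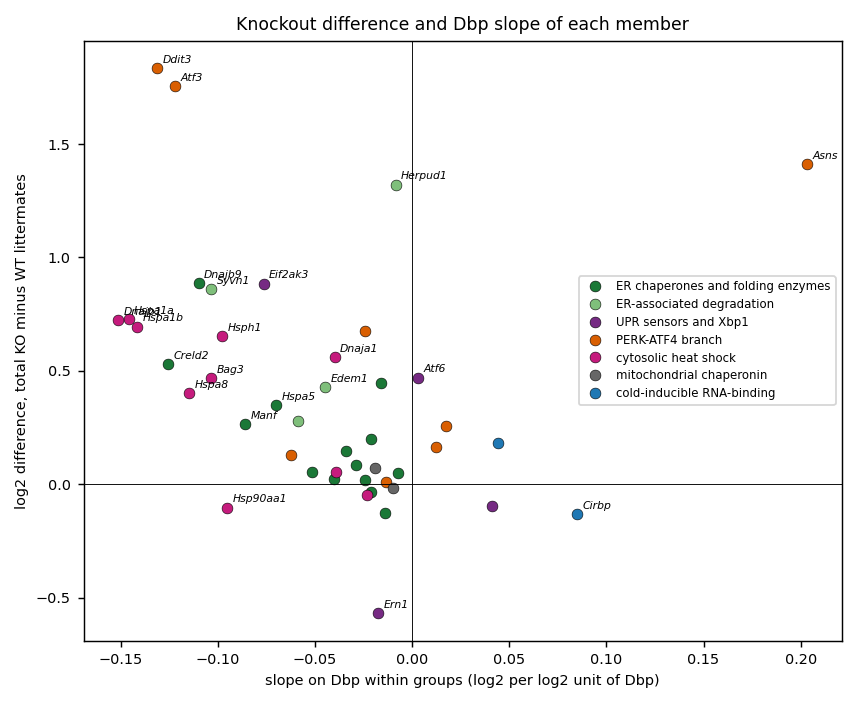
Log2 difference between total ChREBP-KO and WT samples (vertical) against the within-group slope on Dbp (horizontal) for the brightest probe of each member, colored by list. Most members with a large difference lie to the left, at negative slopes, with Herpud1 and Atf6 near 0 and Asns at 0.20.

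Other genes of the same pathways, taken from lists written for this purpose, did not move together in total ChREBP-KO livers. Of 67 further genes of ER folding, translocation and degradation, 8 were higher (11.9%) and 23 lower (34.3%), 1 of them in both counts, with a median of -0.10, beside 16.3% and 16.2% of all genes. Derl3 (1.73 ± 0.41) and Derl2 (-0.83 ± 0.08), both derlins of the degradation channel, went opposite ways. Derl3 is also 1 of the 8 plasma and B cell markers measured. Their mean deviation was -0.31 to 0.55 in total ChREBP-KO and -0.48 to 0.55 in total WT samples. The log2 of their summed signal had medians of 11.91 and 10.43, and the part of such cells was not tested. Vimp (0.60), Creb3l3 (0.39), a liver transcription factor released from the ER, Fkbp11 (-0.74) and Nucb2 (-0.61) were also called. Of 37 further genes of the ATF4 program 9 were higher (24.3%) and 12 lower (32.4%), with a median of -0.08. Vldlr (1.68), the stress hormone Gdf15 (1.45) and the stress protein Nupr1 (1.24) were higher, and the threonyl-tRNA synthetase Tars (-1.30), the proline synthesis enzyme Aldh18a1 (-1.19) and Cebpb (-0.44) were lower. Of 44 further cytosolic heat shock and co-chaperone genes 9 were higher (20.5%) and 11 lower (25%), with a median of 0.01. Dnajb4 (0.59), Hspa2 (0.44) and Dnaja4 (0.43) were higher, and the chaperonin subunits Cct3 (-0.34) and Cct6a (-0.31) and the ribosome-linked Hspa14 (-0.28) were lower. Of 10 further mitochondrial chaperones and proteases only Lonp1 was called (0.17). No gene of these 4 lists was called in ChREBPβ-deficient mice.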

How the data were processed

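Liver RNA was hybridized to 31 one-color Agilent arrays, 1 for each sample in the labels. The authors deposited scanner output of Agilent Feature Extraction 10.10.1.1 with the raw median intensity of each spot. The authors also deposited quantile-normalized log2 values, which served as an alternative. Gene names and probe positions (mm9) are those of the array design. As in the study's methods, median intensities were put on the log2 scale with no background subtracted, spots had to pass on at least 26 arrays or 6 arrays of 1 group, arrays were quantile normalized, and spots of 1 probe were reduced to their median. Of 87 member probes on the array 85 were kept, 69 of them well above background on every array. The precision is limited by the 7 or 8 samples per group. Local background medians were 15 to 33 per array.

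The groups entered 1 limma model (limma 3.58.1, R 4.3.3, data.table version 1.17.8) with contrasts for both knockouts, their difference and both WT groups. Slopes on Dbp were fitted with Dbp centred within groups. P-values were adjusted by Benjamini-Hochberg over all probes with a threshold of 0.05. The design had planned 31 separate samples, and averaging the near-identical pair was decided after the arrays were compared. In fits with slide as a block, 1 array stood for that pair. Correlations used exact permutation over samples, two-sided.

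The members and lists were chosen with earlier results of these data known. The rule for named genes gives all members, with full values for those called (up to 8 per comparison), and for the wider lists up to 3 called genes in each direction by size. Programs were tested on simulated data. Alternatives included other scalings, normexp (offset 50), filters, blocks, exact Mann-Whitney tests, a fold threshold of 1.5, other clock genes and each sample left out. Markers of hepatocytes, exocrine pancreas, stellate cells, blood cells and other types were read as lists. Promoters were those of RefSeq, and no genome was used.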

Additional observations from a re-analysis of the deposited data

Results flagged for a closer look

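Some values of named members stood apart from their own group. Of 144 groups of values tested, 9 held a value whose gap to its nearest neighbor passed Dixon's criterion, and chance gives about 1 in 20. In total WT replicate 2 these were the highest values of Dnajb11 (14.35), Hyou1 (9.52), Edem1 (12.78) and Atf3 (9.33, next highest 7.71), in the sample with the highest level of pancreatic markers. In total ChREBP-KO replicate 1 they were the lowest values of Dnajb11 (13.56) and Edem1 (12.24). The others were Dnajb9 in ChREBPβ WT replicate 5 (12.20, next highest 11.34), Hspe1 in ChREBPβ WT replicate 6 (14.60) and Hspa8 in total WT replicate 3 (15.22).

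The effect of losing both isoforms differed from that of losing ChREBPβ alone, by the test of the difference itself, in 12 probes of 8 members. The differences of the log2 effects were 1.69 and 1.51 for the probes of Ddit3, 1.64 for Atf3, 1.03 and 1.20 for Herpud1, 0.73 for Eif2ak3 and 0.43 for Dnaja1. They were 2.11 for the dim probe of Dnajb11, 1.60 for that of Hyou1, and -0.95, -0.81 and -0.77 for dim probes of Ern1.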

How the results depend on the processing

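Every difference called by the brightest probe in the total line kept its direction under all alternatives run. Members called in the total line (19) were 11 with slide as a fixed block and 12 with a fold of at least 1.5 in addition. Members called in the difference of the knockout effects (8) were 5 with slide as a fixed block, 13 without total WT replicate 2, 13 without the knockouts high in stellate markers and 20 with Dbp as measured as a covariate. Members called between the WT groups (5) were 0 with slide as a fixed block, 3 by exact Mann-Whitney tests, 1 with the fold threshold, 3 with the mean of all probes of a gene, and 9 or 3 with Dbp centred or as measured as a covariate. Members called for the slope on Dbp (18) were 3 with slide as a fixed block, 0 with Per2, 0 in the total line alone, 3 without the pair of samples farthest in Dbp and 8 without ChREBPβ WT replicate 5. The cause of these changes was not tested. Apart from the fits by line, the shares of all genes called under these alternatives were not counted.

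With 1 sample left out at a time, the counts ranged from 16 to 25 in the total line, 0 to 0 in the ChREBPβ line, 8 to 13 for the difference, 4 to 7 between WT groups and 8 to 21 for the slope. With the near-identical pair as separate samples 21, 10, 7 and 20 members were called in the total line, the difference, between WT groups and for the slope. Slopes turned sign in the total line alone for Hspa5 (0.043), Creld2 (0.11), Manf (0.068), Ddit3 (0.046), Hsp90aa1 (0.020) and Cirbp (-0.0041), and with Per2 for Hspa8 (0.14), Hsp90aa1 (0.14), Dnajb1 (0.0072) and Cirbp (-0.094).

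Replicate numbers were not taken as pairs, since not every pair correlated over 0.1. Deviations of same-numbered samples correlated at -0.21 to 0.21 over 6 pairs of the total line (1 over 0.1) and at -0.24 to 0.61 over 8 pairs of the ChREBPβ line (6 over 0.1), where shared conditions are not excluded. With the replicate block 21 members were called in the total line, 0 in the ChREBPβ line, 16 in the difference, 7 between WT groups and 5 for the slope. Dim probes carry the least signal over background, and calls that rest on them are the least certain.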
